A study of Mus musculus with 11 samples.

Results

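The genes followed here, 10 of the 45777 in the table, were chosen by name for their roles in macrophage iron and heme handling: Slc11a1, Hmox1, Blvrb, Slc40a1, Cp, Hfe, Tfrc, Fth1, Ftl1 and Spic. They were picked with earlier results of these data known, and all 10 were present and tested in every comparison. RNA-seq was performed on whole skin and whole small intestine of BALB/c mice. Female or male mice aged 8 to 10 weeks received 62.5 mg of cream daily on the shaved back and, per the labels, the right ear for 5 to 8 days, whereas the study's methods name the back alone and a shorter longest course. The cream was 5% imiquimod (IMQ, Aldara), a Toll-like receptor 7 agonist that induces psoriasis-like skin inflammation, or Vaseline as the vehicle. Skin gave 3 control (replicates 1 to 3) and 3 IMQ libraries (replicates 4 to 6), and the small intestine gave 3 control (replicates 7 to 9) and 2 IMQ libraries (replicates 10 and 11). The sex and the days of treatment of each mouse were not given in the sources used here, nor was it stated whether a skin and an intestinal library came from 1 mouse or whether libraries of a group came from separate mice, so the p-values measure the spread between these libraries.

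Macrophages take up spent red blood cells, open the heme ring with heme oxygenase 1 (Hmox1) and reduce the biliverdin that results. They either store the freed iron in ferritin (Fth1 and Ftl1) or export it through ferroportin (Slc40a1). Slc11a1 moves iron out of the phagosome, and Spic is the transcription factor that splenic red pulp macrophages need. Several of these genes are also active elsewhere: enterocytes export dietary iron through ferroportin and store it in ferritin, and dividing cells of any kind take up transferrin iron through Tfrc. The levels below are therefore those of whole tissues.

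The mRNAs of ferritin, ferroportin and the transferrin receptor share a hairpin, the iron-responsive element, through which iron regulatory proteins control translation or mRNA stability. In the 5′ UTR it acts on translation, which the mRNA levels measured here do not show, and in the 3′ UTR of Tfrc on the stability of the mRNA itself. It is shown because it sets these members apart from the others. A search of the annotated untranslated regions (UTRs) for a C, 5 bases, the loop CAGTGN and 5 bases that pair with the first 5 (G with U allowed) found it in the 5′ UTR of 3 of the 10 genes and the 3′ UTR of 1, against 0.142% and 0.59% of 21877 coding genes. The matches, from GENCODE M21 transcripts, lie in exons at chr19:9982733-9982759 (plus strand, Fth1), chr7:45459780-45459806 (minus, Ftl1), chr1:45925466-45925492 (minus, Slc40a1) and, for the first 2 of 4 matches in Tfrc, chr16:32631220-32631246 and chr16:32631599-32631625 (plus) of GRCm38. Capitals mark the loop.
Fth1: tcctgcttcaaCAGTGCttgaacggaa
Ftl1: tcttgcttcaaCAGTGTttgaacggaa
Slc40a1: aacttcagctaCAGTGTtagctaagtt
Tfrc, first: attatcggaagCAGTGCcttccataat
Tfrc, second: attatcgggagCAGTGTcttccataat
In the ferritin elements the 5 bases before the loop were the same, and in the Slc40a1 element they were others. A match is a description of letters and was not a measurement of binding.

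The libraries held 44995414 to 58526384 counts. Spic was the member with the fewest, at 3, 5 and 13 raw counts in the control small intestine. Skin control replicate 2 stood apart from the other control skin: its summed level of enterocyte markers was 226 FPKM (fragments scaled to transcript length and library size) against 66.7 and 90.3, and its summed hair follicle and pigment markers were 29.4 FPKM against 551 and 990. Counts of the skin comparison are also given without that library, an alternative added after the data were seen for the marker and pathway lists, and values of the 10 genes are given without it where a call changed or rested on single libraries. Without it 2521 genes, or 12.1% of those tested, were called in skin.

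**Figure D1:**
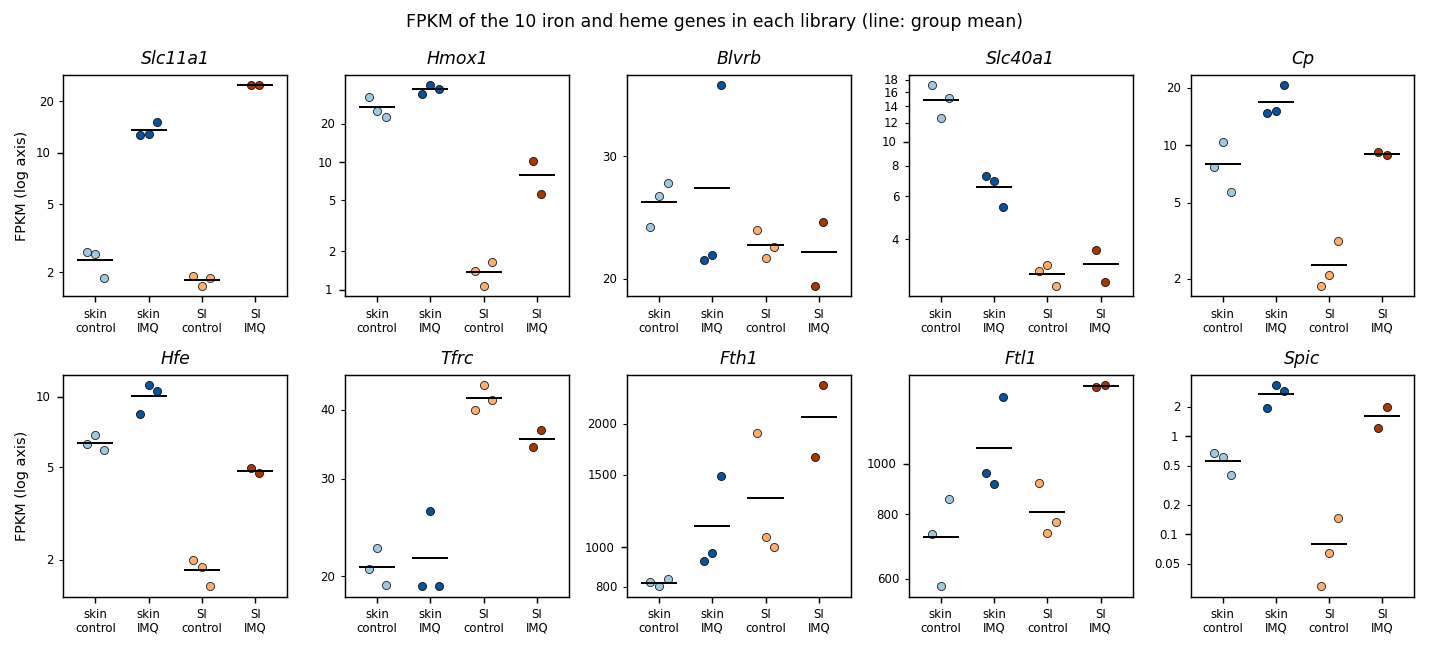
FPKM of each of the 10 genes (log axis, 1 panel a gene) in the 3 control and 3 IMQ skin libraries and the 3 control and 2 IMQ small intestine (SI) libraries. Points are libraries and lines are group means. Slc11a1 and Spic were higher with IMQ in both tissues, Slc40a1 was lower with IMQ in skin, and Hmox1 was highest in skin.

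With IMQ, 5 of the 10 genes rose in the small intestine and none fell (edgeR, quasi-likelihood F test, Benjamini-Hochberg adjusted p under 0.05). Among all 19965 genes tested, 2.95% were called, 2.77% higher and 0.17% lower. The median log2 fold change of the 10 genes was 1.15 and that of all genes -0.02. In skin 3 of the 10 genes rose and 1 fell, where 6.74% of 20512 genes were called, 4.05% higher and 2.69% lower, and the medians were 0.57 for the 10 genes and -0.01 for all genes. The skin count was 1 without replicate 1 or 5 and 5 without replicate 2. Calls among all genes in skin moved as well, being fewest without replicate 5 and 12.1% of those tested without replicate 2. The intestinal count was 5 with any control library left out. With RNA from whole tissue, more cells of a type and more RNA per cell cannot be told apart.

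Slc11a1 (Entrez 18173, chr1:74375014-74386057, plus strand) encodes the phagosomal divalent metal transporter of macrophages and neutrophils. BALB/c mice carry the allele whose protein does not work, so these are levels of its mRNA only. In control skin it had 322, 338 and 225 normalized counts, and in IMQ-treated skin 1715, 1638 and 1912. The 3 intestinal controls had 261, 211 and 260 and the 2 IMQ libraries 3321 and 3568. The groups did not overlap in either tissue, and the 2 intestinal IMQ libraries were close to each other. Slc11a1 rose by a log2 fold change of 2.57 (SE 0.19, adjusted p = 0.00221) in skin, which is 5.95-fold, and of 3.82 (SE 0.15, adjusted p = 1.20e-04) in the small intestine, which is 14.1-fold. Both calls were kept with any 1 library left out. On the FPKM scale, which is comparable across tissues within the limits of library composition, the IMQ-treated intestine was highest at 24.9 ± 0.143 (SD, n = 2), followed by IMQ-treated skin at 13.5 ± 1.34 (SD, n = 3). Control skin at 2.34 ± 0.423 and control intestine at 1.80 ± 0.131 (SD, n = 3 each) overlapped.

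Hmox1 (Entrez 15368, chr8:75093618-75100593, plus strand), the inducible enzyme that opens heme, had the widest difference between the control tissues of the 10 genes. Control skin had 2687, 2230 and 1837 normalized counts and IMQ-treated skin 3106, 3511 and 3127. The control intestine had 130, 91.7 and 156, and the IMQ-treated intestine 929 and 552. Neither pair of groups overlapped, and the 2 intestinal IMQ libraries differed from each other more than the 3 skin ones did. The log2 fold change was 2.55 (SE 0.31, adjusted p = 0.00519) in the small intestine, a 5.87-fold rise. In skin it was 0.53 (SE 0.16) and did not pass the test with edgeR (adjusted p = 0.0975), although it did with DESeq2 (adjusted p = 0.0413). Even after the rise, the intestinal level of 7.97 ± 3.27 FPKM (SD, n = 2) was below that of control skin, 26.8 ± 5.22 FPKM (SD, n = 3), with no overlap between any neighbouring groups.

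Blvrb (Entrez 233016, chr7:27447978-27465981, plus strand), which encodes biliverdin reductase B, did not pass the test in either tissue. Its log2 fold change was 0.10 (SE 0.23, adjusted p = 0.831) in skin and 0.01 (SE 0.17, adjusted p = 0.996) in the small intestine. Normalized counts ranged from 1073 to 1277 in control and from 1027 to 1759 in IMQ-treated skin, with replicate 6 at the upper end. In the intestine they ranged from 1009 to 1192 and from 967 to 1292. Blvra, which encodes biliverdin reductase A, was higher without overlap in both tissues and did not pass the test. Its log2 fold changes were 0.28 (adjusted p = 0.296) in skin and 0.54 (adjusted p = 0.127) in the intestine.

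Slc40a1 (Entrez 53945, chr1:45908070-45926532, minus strand), the iron exporter ferroportin, was the only one of the 10 genes that fell in skin, and its response differed between the tissues. Control skin had 3033, 2365 and 2631 normalized counts, and IMQ-treated skin 1400, 1293 and 979, with no overlap. The log2 fold change was -1.13 (SE 0.17, adjusted p = 0.0147). The call was lost without control replicate 1 (adjusted p = 0.0646) or IMQ replicate 5 (adjusted p = 0.0698), while the log2 fold change stayed at -1.04 and -1.17. Without control replicate 2, which stood apart, it was -1.21 (adjusted p = 0.0128). In the small intestine the controls had 574, 579 and 524 and the IMQ libraries 702 and 559. These overlapped, and the log2 fold change of 0.17 (SE 0.17, adjusted p = 0.793) did not pass the test. Hair follicle and pigment markers also differed in skin, with summed levels of 29.4 to 990 FPKM in control and 13.5 to 22.5 FPKM in IMQ-treated libraries, and 2 of 8 tested markers (Hoxc13 and Lef1) fell, or 8 of 8 without control replicate 2. Their part in the Slc40a1 result was not tested.

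The copper oxidase ceruloplasmin (Cp, Entrez 12870, chr3:19956933-20009750, plus strand), which oxidizes exported iron for loading onto transferrin, rose in the small intestine. The controls had 501, 480 and 822 normalized counts and the IMQ libraries 2201 and 2273, a log2 fold change of 1.89 (SE 0.24, adjusted p = 0.00634). In skin the groups also did not overlap, at 1724, 2547 and 1298 against 3581, 3512 and 4754. The log2 fold change of 1.09 (SE 0.26) did not pass the test (adjusted p = 0.0557), and without control replicate 2 it was 1.39 (adjusted p = 0.0131). DESeq2 (adjusted p = 0.00236), limma-voom (0.0495) and the fit of all 11 libraries (0.0388) also called it.

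Hfe (Entrez 15216, chr13:23702034-23710854, minus strand), a class I-like molecule that binds the transferrin receptor and takes part in iron sensing, had 1168, 1338 and 1083 normalized counts in control and 1693, 2205 and 2015 in IMQ-treated skin. The intestinal values were 410, 362 and 332 against 982 and 1034. The groups did not overlap in either tissue. Hfe rose in the intestine by a log2 fold change of 1.45 (SE 0.16, adjusted p = 0.00369). In skin the rise of 0.72 (SE 0.14, adjusted p = 0.0338) was near the threshold, since the adjusted p was 0.133, 0.0829, 0.0544, 0.144 and 0.0895 without replicate 1, 3, 4, 5 or 6. It was 0.0221 without replicate 2, and 0.0864 and 0.0624 with limma on log2(FPKM + 0.01) and log2(FPKM + 1).

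Promoters (250 bases before to 50 after the start, RefSeq, GRCm38.p6) were given for 8 of the 10 genes, with no entry for Hmox1 and Slc40a1. Because Hmox1 is a textbook target of NRF2, and Spic and PU.1 are related factors, both strands were searched for the antioxidant response element TGACNNNGC, the AP-1 site TGANTCA and the PU box GAGGAAGT. Of all 32851 promoters, 12.4%, 7.81% and 3.2% held them. Hfe was the only one of the 8 genes with TGACNNNGC, and Hfe and Cp held TGANTCA, which in Hfe lay within the former. No promoter of the 8 genes held GAGGAAGT. The stretch around the Hfe match, from 67 to 59 bases before the start, lies at chr13:23710893-23710941 on the minus strand, with the match in capitals.
Hfe: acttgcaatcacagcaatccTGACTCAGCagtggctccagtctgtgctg

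The transferrin receptor Tfrc (Entrez 22042, chr16:32608896-32632794, plus strand), the main entry of transferrin iron, did not pass the test in either tissue. The skin values, 5304, 6255 and 4928 in control and 5424, 7118 and 5044 in IMQ-treated libraries, overlapped (log2 fold change 0.09, SE 0.17, adjusted p = 0.792). In the intestine the controls had 11549, 11893 and 12344 normalized counts and the IMQ libraries 9645 and 11173, which were lower with no overlap (log2 fold change -0.20, SE 0.14, adjusted p = 0.680). Groups without overlap in either direction are common at these sizes, at 28.4% of the genes tested in skin and 29% in the intestine, with 15.1% higher in each. Among the 10 genes, 7 were higher and 1 lower without overlap in skin, and 6 were higher and 1 lower in the intestine.

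The ferritin genes were by far the most abundant of the 10 genes, together taking 0.148% to 0.424% of all counts in a library. Fth1 (Entrez 14319, chr19:9980600-9985111, plus strand), the heavy chain that oxidizes iron, had 40464, 42376 and 40568 normalized counts in control and 49726, 50028 and 75050 in IMQ-treated skin. In the intestine it had 104920, 54272 and 56851 in the controls and 89692 and 145087 with IMQ, so that 1 control lay between the IMQ libraries. Ftl1 (Entrez 14325, chr7:45457944-45459886, minus strand), the light chain, had 37117, 31587 and 42847 against 53126, 48777 and 69644 in skin, and 52197, 38830 and 45163 against 78117 and 85171 in the intestine. Only the intestinal Fth1 values overlapped between control and IMQ. None of these differences passed the test with edgeR. The log2 fold changes of Fth1 were 0.50 (SE 0.21, adjusted p = 0.205) in skin and 0.70 (SE 0.37, adjusted p = 0.534) in the intestine, and those of Ftl1 were 0.62 (SE 0.20, adjusted p = 0.129) and 0.85 (SE 0.21, adjusted p = 0.110). DESeq2 called Ftl1 in both (adjusted p = 0.0275 and 1.51e-04). The ratio of Fth1 to Ftl1 FPKM was 0.963 to 1.38 across the skin libraries and 1.18 to 2.07 across the intestinal ones, and was highest in control replicate 7. That library also had the highest summed level of proximal small intestine markers among the controls (7032 FPKM against 2685 and 4185). The IMQ libraries had 8843 and 11103 FPKM of these markers, none of which was called. Where along the intestine a sample was taken and the treatment cannot be told apart here. Ftl1 has near-identical processed copies, whose rows (Ftl1-ps1, Ftl1-ps2 and Ftl2-ps) held 5.12% to 6.31% as many counts as Ftl1, so the Ftl1 values are uncertain to about that degree.

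Spic (Entrez 20728, chr10:88675269-88683023, minus strand) rose in both tissues from a low level. Control skin had 45.2, 43.6 and 26.2 normalized counts and IMQ-treated skin 141, 233 and 195, a log2 fold change of 2.31 (SE 0.33, adjusted p = 0.0121). The control intestine had 3, 5 and 13 raw counts and the IMQ-treated intestine 97 and 140, a log2 fold change of 4.11 (SE 0.53, adjusted p = 0.00682). The groups did not overlap in either tissue. In skin the call was lost without control replicate 1 (adjusted p = 0.0528) or IMQ replicate 5 (adjusted p = 0.06). Even at its highest, Spic was at 3.34 FPKM in IMQ-treated skin and 1.98 FPKM in the IMQ-treated intestine.

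**Figure D2:**
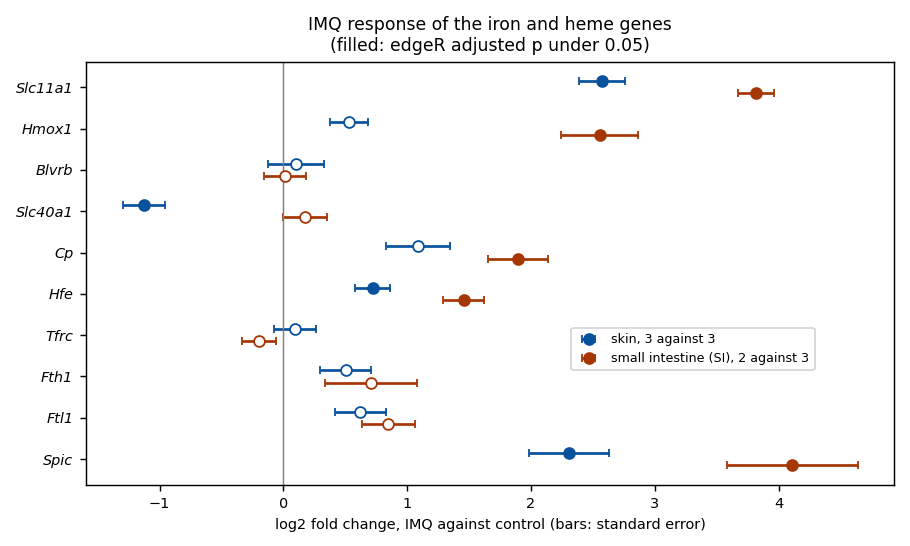
Log2 fold change of IMQ against control (x axis) for the 10 genes in skin and small intestine, with standard errors as bars. Filled points passed an adjusted p of 0.05. Slc11a1, Spic and Hfe passed in both tissues, Hmox1 and Cp in the small intestine, and Slc40a1, at -1.13, in skin.

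A tissue by treatment interaction term over all 11 libraries tested whether the responses were unequal. The test called 3 of the 10 genes, where 2.55% of 18108 genes were called, 1.7% in the positive and 0.856% in the negative direction. Each of the 3 had a more positive log2 fold change in the small intestine than in skin: Hmox1 by 2.03 (SE 0.34, adjusted p = 0.0127), Slc40a1 by 1.31 (SE 0.23, adjusted p = 0.0153) and Slc11a1 by 1.25 (SE 0.25, adjusted p = 0.0280). All 3 calls were lost without intestinal IMQ replicate 10 (adjusted p = 0.0659, 0.0887 and 0.0894). The Slc11a1 call was also lost without replicates 1, 4, 5, 8, 9 or 11 (adjusted p = 0.0577 to 0.11), while its difference stayed at 1.15 to 1.30. Each call was also lost under 1 or more other settings: Hmox1 on log2(FPKM + 1) (adjusted p = 0.0544), Slc40a1 on log2(FPKM + 0.01) (adjusted p = 0.0555) and Slc11a1 with no filter on low counts (adjusted p = 0.0516). For Spic (1.81, SE 0.62, adjusted p = 0.167), Cp (0.82, SE 0.40, adjusted p = 0.343) and Hfe (0.74, SE 0.22, adjusted p = 0.110) no difference between tissues passed the test.

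Without IMQ the tissues themselves differed. Between control small intestine and control skin 8 of the 10 genes passed the test, where 51.9% of 18890 genes did (26.2% higher in the intestine and 25.7% lower). Fth1 (log2 fold change 1.15), Ftl1 (0.63) and Tfrc (1.45) were higher in the intestine (adjusted p = 0.0153, 0.0400 and 1.25e-04). Hmox1 (-3.82), Spic (-2.12), Slc40a1 (-1.92), Hfe (-1.37) and Cp (-1.29) were lower (adjusted p = 2.0e-05, 0.00699, 2.52e-05, 3.52e-04 and 0.0103). Slc11a1 (0.06, adjusted p = 0.850) and Blvrb (0.25, adjusted p = 0.188) did not pass. The Ftl1 call was lost without replicate 1, 2, 7 or 9 (adjusted p = 0.134, 0.0703, 0.123 and 0.0875) and with TMM normalization (adjusted p = 0.0752), and the Fth1 call without replicate 1 (adjusted p = 0.0629). This comparison depends on how the libraries are scaled. On the log2(FPKM + 0.01) scale the median of all genes moved to -0.45 and only 28.6% of calls were higher in the intestine, against 50.5% with normalized counts. Relative to that median Fth1 was at 1.07, Ftl1 at 0.62 and Tfrc at 1.46, while the unshifted 0.62 of Fth1 (adjusted p = 0.0891) and 0.17 of Ftl1 (adjusted p = 0.486) did not pass.

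In skin 7 of 12 macrophage markers rose (C1qa, C1qb, C1qc, Cd14, Adgre1, Fcgr1 and Lyz2), and without control replicate 2 also 7, with Cx3cr1 in place of Lyz2. The median log2 fold change of the 12 was 1.16, and their summed level was 489 to 718 FPKM in control and 1154 to 1530 FPKM in IMQ-treated libraries. Of the same 12, 6 rose in the small intestine (C1qa, C1qb, C1qc, Cd68, Adgre1 and Fcgr1), with a median of 1.36 and summed levels of 275 to 374 and 905 to 972 FPKM. Adgre1, the F4/80 antigen, rose by 2.88 in skin and 2.16 in the intestine, and C1qa, a complement component made by tissue macrophages, by 1.40 and 2.04. Csf1r, the macrophage growth factor receptor, had log2 fold changes of 0.40 (adjusted p = 0.333) and 0.38 (adjusted p = 0.605), which did not pass. Mertk, a receptor for dying cells, was lower in skin without overlap (-0.36, adjusted p = 0.178). In the interaction 5 of the 12 markers were positive, with a median of -0.10. Of the macrophage markers none was at 0 in any library. Monocyte markers summed to 63.7 to 84.4 FPKM in control and 101 to 139 FPKM in IMQ-treated skin, where 3 of 7 rose. In the intestine their sums overlapped, at 1420 to 1611 FPKM in control and 1503 and 1522 FPKM in IMQ-treated libraries. Of 6 monocyte markers tested there, 1 rose (Treml4). Eosinophil markers summed to 14.3 to 34.2 and 3.55 to 6.87 FPKM in skin, where Ear2 fell. In the intestine Ear2 instead rose (log2 fold change 2.13, adjusted p = 0.0136), and its interaction was positive and passed (5.40, adjusted p = 0.00178). Of the 5 eosinophil markers tested there, only 2 had a positive log2 fold change, and the median was -0.30. The summed level of the list overlapped, at 3.79 to 7.69 FPKM in the control and 7.38 and 7.42 FPKM in the IMQ-treated intestine. Enterocyte markers summed to 7104 to 10325 FPKM in the control and 14126 to 18039 FPKM in the IMQ-treated intestine, where none of 8 passed. Only 3 of these 8 had a positive log2 fold change, and the median of the 8 was -0.14. Among the positive was the abundant Apoa4, with mean normalized counts of 237989 in the control and 843860 in the IMQ-treated intestine (1.83, adjusted p = 0.222). The part of any of these cells in the changes of the 10 genes was not tested.

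Neutrophils also express Slc11a1. Csf3r, their growth factor receptor, rose in both tissues, from 1.90 to 2.84 FPKM to 17.8 to 20.4 FPKM in skin (log2 fold change 3.04, adjusted p = 7.74e-04) and from 0.633 to 1.02 FPKM to 7.80 and 6.97 FPKM in the intestine (3.21, adjusted p = 4.86e-04), and the interaction did not pass (0.18, adjusted p = 0.818). Of the 5 neutrophil markers tested in the interaction, Csf3r was the only positive one. The median of the 5 was -2.07, and S100a9 and Retnlg passed in the negative direction. In skin all 6 tested markers rose and their summed level went from 13.6 to 15.2 FPKM to 7037 to 8588 FPKM. S100a8, a calcium-binding alarmin, rose by a log2 fold change of 10.16 (adjusted p = 5.39e-04). Keratinocytes of inflamed skin also make S100a8 and S100a9, which gave most of that sum. The intestine had 2 of 5 (Csf3r and Mmp8) higher, and the sum went from 7.17 to 8.13 FPKM to 14.9 to 15.6 FPKM. The other tested markers did not pass in the intestine: S100a9 (2.24, adjusted p = 0.164), Cxcr2 (-0.25, adjusted p = 0.893) and Retnlg (-0.07, adjusted p = 0.943). There S100a8 was at 0 to 0.27 FPKM in the controls and 0.26 to 0.47 FPKM with IMQ. The part of neutrophils in the Slc11a1 values was not tested. Red blood cell markers were summed at 110 to 213 FPKM in control and 290 to 772 FPKM in IMQ-treated skin, where the globin genes Hbb-bs and Hbb-bt rose, and at 67.4 to 173 and 114 to 383 FPKM in the intestine, where none passed. Hba-a1, an alpha globin gene, had log2 fold changes of 1.75 (adjusted p = 0.0542) and 1.33 (adjusted p = 0.382), and its reads can be split with its near-identical copy Hba-a2. The part of blood in the Hmox1 values was not tested.

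**Figure D3:**
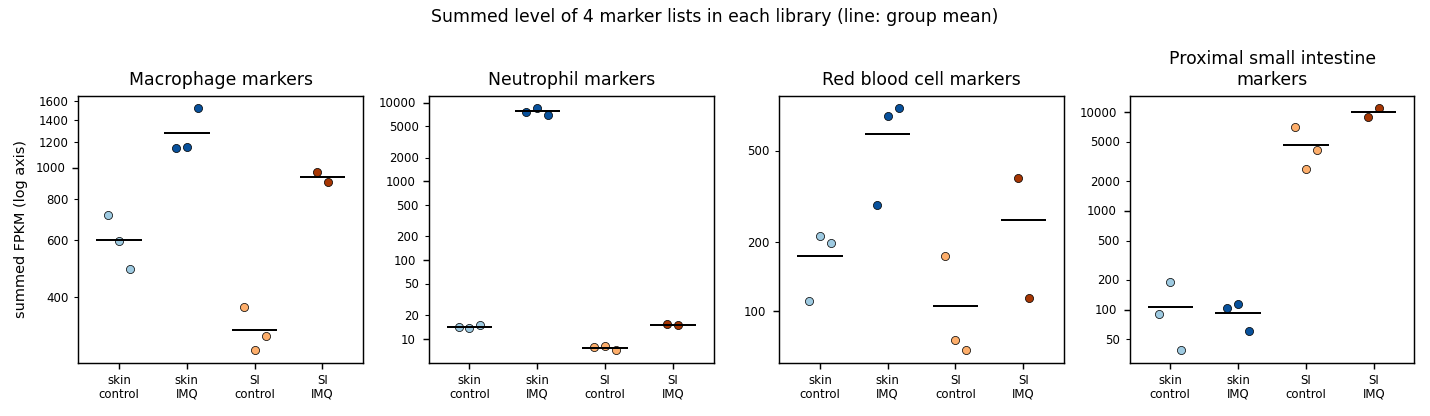
Summed FPKM (log axis) of 4 marker lists in each library, with group means as lines. Macrophage markers were higher with IMQ in both tissues without overlap, neutrophil markers reached 7037 to 8588 FPKM in IMQ-treated skin alone, and red blood cell markers overlapped between control and IMQ in the small intestine (SI).

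Spic belongs to a set of genes found in red pulp-type macrophages, and the rest of that set split. In the small intestine Itgad, the integrin chain CD11d, was at 0.265 to 0.368 FPKM in the controls and at 12.2 and 8.55 FPKM with IMQ (log2 fold change 5.10, adjusted p = 1.53e-04). Treml4, a receptor of myeloid cells, went from 1.53 ± 0.415 FPKM (SD, n = 3) to 11.6 ± 0.795 FPKM (SD, n = 2) with IMQ (2.93, adjusted p = 0.00138). Timd4, a receptor for dying cells on long-lived resident macrophages, fell from 1.65 to 2.60 FPKM to 0.291 and 0.0767 FPKM (-3.44, adjusted p = 0.0142). Siglec1, a sialic acid receptor of resident macrophages, was lower without overlap in the intestine (-0.93, adjusted p = 0.139) and higher without overlap in skin (1.05, adjusted p = 0.0783), and its interaction was negative and passed (-1.97, adjusted p = 0.0318). In skin Spic, Treml4 and Vcam1 rose, and Itgad and Timd4 did not pass. The Vcam1 call was lost without control replicate 2. Cd163, the hemoglobin-haptoglobin receptor, did not pass in skin (0.60, adjusted p = 0.406) or in the intestine (0.23, adjusted p = 0.845), where it stayed at 0.36 to 0.65 FPKM.

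Of 62 tested genes in 7 further iron and heme lists, 12 passed in skin, where 6.74% of all genes did. Without control replicate 2 it was 15, where 12.1% of all genes passed. Of 60 tested in the intestine, 1 passed, where 2.95% of all genes did. Among the genes of uptake and intestinal absorption, Heph, the membrane oxidase that works beside ferroportin, fell in skin (-1.12, adjusted p = 0.0337), as did the ferric reductase Cybrd1 (-1.63, adjusted p = 0.0350). Lcn2, which binds bacterial iron carriers, rose from 3.66 to 4.90 FPKM to 86.5, 152 and 235 FPKM (5.22, adjusted p = 0.00218). The iron importer Slc11a2 did not pass in skin with all libraries (0.56, adjusted p = 0.139), and was called higher without control replicate 2. In the intestine none of the 9 tested genes of this list passed: Heph had a log2 fold change of 0.07, Cybrd1 of -0.44 and Slc11a2 of 0.22 (adjusted p = 0.945, 0.608 and 0.719). The hepcidin gene Hamp was at 0 in 10 of 11 libraries and at 0.08 FPKM in the other, so no change in it was detectable at this depth. In the hepcidin list Neo1, a receptor that binds hemojuvelin, fell in skin (-1.03, adjusted p = 0.0495) and none of 7 tested genes passed in the intestine.

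Of the genes that carry, make or scavenge heme, Abcg2, a transporter that exports porphyrins, rose in skin (1.11, adjusted p = 0.0130) and Alad, an enzyme of early heme synthesis, fell (-1.42, adjusted p = 0.0258). In the intestine none of 9 scavenging and transport genes and none of 11 synthesis genes passed. Of the 9, 5 were higher and none lower without overlap, where 15.1% of all genes tested were higher without overlap. Of the 11, 1 was higher and 1 lower. The summed level of the scavenging and transport list was 140 to 176 FPKM in the control and 230 and 236 FPKM in the IMQ-treated intestine. Fbxl5, which targets an iron regulatory protein for breakdown, rose in skin (0.50, adjusted p = 0.0443). Among the regulators of Hmox1 and ferroportin, 3 of 9 rose in skin: Hif1a (1.78, adjusted p = 0.00238), Spi1, which encodes PU.1 (1.25, adjusted p = 0.00961), and Nfe2l2, which encodes NRF2 (0.76, adjusted p = 0.0315). Without control replicate 2, Epas1 of the same list was called higher as well. In the intestine Spi1 alone rose, from 8.49, 5.13 and 5.68 FPKM to 36.0 and 31.7 FPKM (2.43, adjusted p = 0.00176), while Nfe2l2 (0.03, adjusted p = 0.977) and the heme-sensing repressor Bach1 (-0.29, adjusted p = 0.792) did not pass. Of 9 NRF2 targets, Nqo1 (0.73, adjusted p = 0.0305) and Slc7a11 (4.66, adjusted p = 0.0107) rose in skin, and none of the 9 passed in the intestine. In skin 5 of the 9 had a positive log2 fold change, and the median was 0.08. Gclc was lower there without overlap (-0.71, adjusted p = 0.104) and was called lower without control replicate 2. The summed level of the targets overlapped, at 191 to 242 FPKM in control and 197 to 215 FPKM in IMQ-treated skin. The interaction term was negative and passed for Lcn2, Abcg2, Hif1a, Nqo1 and Slc7a11 (adjusted p = 0.00318, 0.0397, 0.0114, 0.0234 and 0.0104) and positive for Alad (adjusted p = 0.0463).

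**Figure D4:**
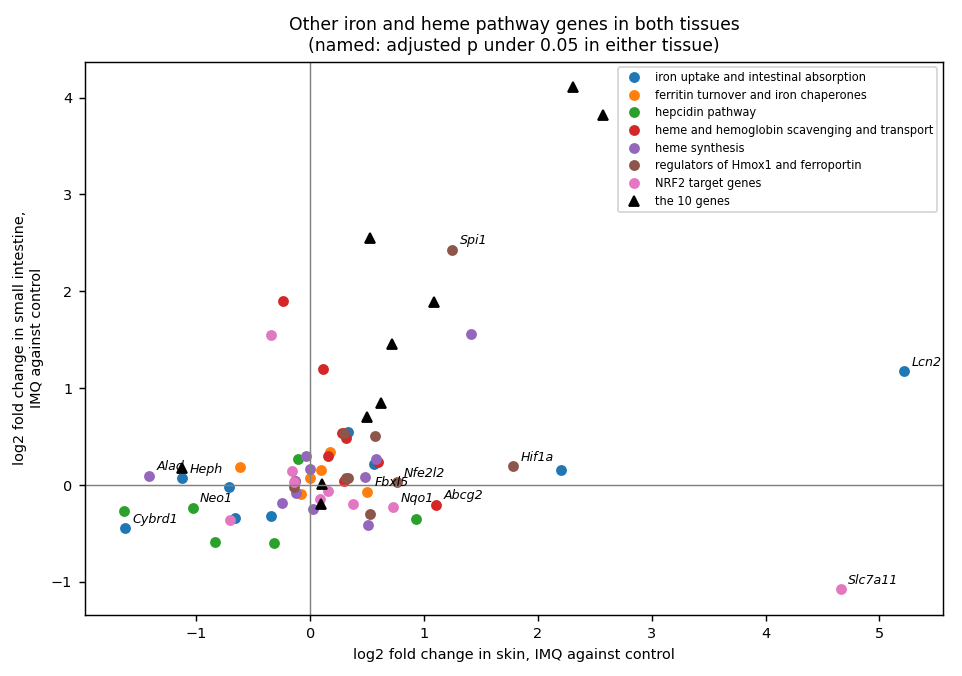
Log2 fold change of IMQ against control in skin (x axis) and small intestine (y axis) for 59 other iron and heme pathway genes tested in both tissues, coloured by list, with the 10 genes as black triangles. Named genes passed in either tissue; of the coloured points Spi1 alone passed in the small intestine.

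The patterns closest to those of 3 members over the 11 libraries were sought among 14896 genes with a mean of at least 1 FPKM, by Pearson's r of log2(FPKM + 1). The nearest to Hmox1 were Ctsl (r = 0.995), Zeb2 (0.993) and Rab3il1 (0.990), the nearest to Slc11a1 were Cd300c2 (0.994), Igsf6 (0.992) and Cd72 (0.991), and the nearest to Slc40a1 were Lamc3 (0.994), Paqr5 (0.994) and Adamts14 (0.991). The libraries share tissue and treatment, and with 4 groups such values are a description.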

How the data were processed

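RNA-seq was measured in 11 libraries in 4 groups taken from the sample labels. Per the labels and the study's methods, the authors trimmed reads (Trimmomatic), aligned them to mm10 with HISAT2 2.1.0 and quantified genes with StringTie 2.1.3b. Strand and multi-mapping settings were not given in the sources used here. They deposited raw read counts per gene, FPKM and TPM, of which TPM was not analysed. Raw counts were tested with edgeR 4.0.16 (quasi-likelihood F test, relative log expression normalization, only genes counted in all libraries of a comparison, two-sided, Benjamini-Hochberg over all tested genes). The study's methods likewise dropped genes with a 0 in any sample. Each tissue was fitted on its own libraries. Normalized counts were scaled within a tissue, and levels across tissues are in FPKM. Alternatives were TMM, DESeq2 1.42.0, limma-voom and limma 3.58.1 on log2(FPKM + 0.01 or 1), other filters, 1 fit of all libraries and leaving out each library.

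The 10 members and all lists were chosen with earlier results of these data known, so their agreement with those results is not independent support. All 10 members were named, as were called genes of the other iron and heme lists (at most 6 a list and comparison) with a few named whatever their result. Itgad, Timd4, Treml4, Siglec1, Vcam1, Csf3r, Mertk, Apoa4, Cxcr2, Retnlg, S100a9, Blvra, Gclc and Epas1 were named after their values were seen. The labels give no batch. Positions for all 10 members came from RefSeq (GRCm38.p6), and hairpins from GENCODE M21.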

Additional observations from a re-analysis of the deposited data

Results flagged for a closer look

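The response of 3 genes to IMQ differed between the tissues by the interaction term of edgeR's quasi-likelihood test. The log2 fold change in the small intestine exceeded that in skin by 2.03 for Hmox1, by 1.25 for Slc11a1 and by 1.31 for Slc40a1. Each call was lost without intestinal IMQ replicate 10 and under a further setting, that of Hmox1 on log2(FPKM + 1) (adjusted p = 0.0544), that of Slc11a1 with no filter (adjusted p = 0.0516) and that of Slc40a1 on log2(FPKM + 0.01) (adjusted p = 0.0555). For Hmox1 and Slc11a1 all libraries with IMQ lay above all controls in both tissues, and the intestinal rise was the larger on the log2 scale. In mean FPKM, Hmox1 went from 26.8 to 37.3 in skin and from a lower level of 1.37 to 7.97 in the intestine. For Slc40a1 the skin libraries fell without overlap and the intestinal ones overlapped. Macrophage marker sums rose in both tissues (489 to 718 against 1154 to 1530 FPKM in skin, 275 to 374 against 905 to 972 FPKM in the intestine), and in the interaction 5 of the 12 markers were positive, with a median of -0.10, and Cd68 and Mertk alone passed (adjusted p = 0.00667 and 0.0184). Their part in these differences was not tested.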

How the results depend on the processing

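No result on the 10 genes that passed a test turned its direction under any alternative. Of 590 values of single genes under the alternatives, 547 kept their side of the threshold, 35 lost and 8 gained a call. With DESeq2 the calls among all genes were 3030 in skin, 1206 in the small intestine and 1281 for the interaction, and 7 of the 10 genes were called in skin. On log2(FPKM + 0.01) they were 912, 291 and 301, on log2(FPKM + 1) 852 in skin and 344 in the intestine, and with no filter 301 for the interaction, where more genes were tested. Leaving out 1 library gave 258 to 2521 calls in skin (lowest without replicate 5, highest without replicate 2), 294 to 801 in the intestine (lowest without replicate 10, highest without replicate 7), 144 to 1072 for the interaction (without replicates 10 and 2) and 8210 to 10155 between control tissues. Of the 10 genes, 1 to 5 were then called in skin, 5 in the intestine each time, 0 to 3 for the interaction and 6 to 8 between control tissues. In the intestine the Hmox1 call was lost on log2(FPKM + 1) (adjusted p = 0.0587) and that of Spic on log2(FPKM + 0.01) (adjusted p = 0.0531). The causes were not tested. No paired analysis was possible because the sources used here do not state which libraries came from the same mouse. The comparisons between tissues therefore treated all libraries as independent. With 2 IMQ libraries the intestinal values rest on few samples.
Where 1 of them was left out, the lone library was assumed to vary like the controls.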
